A study of Mus musculus with 11 samples.

Results

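The T-bet and Th1-like program comprised 8 genes of the 52997 listed in the count table: Tbx21, Runx3, Stat4, Il12rb1, Il12rb2, Il18r1, Il18rap and Ifng. They were chosen by gene name for their place in the IL-12, IL-18 and interferon gamma pathway, with their levels in the 4 groups known when the choice was made. Their levels and fold changes are therefore given as a description, and the calls of the whole-table fit are printed beside them without being read as support. The TCR of vTreg53 cells came from a single regulatory T cell clone of visceral adipose tissue (VAT), and Fat1562 is a surrogate peptide that activates it. Each of the 11 libraries was made by Smart-seq2, a full-length cDNA method for small samples, from 1000 double-sorted CD45.2+ Treg cells bearing the transgenic clonotype.

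The 4 groups, all from male C57BL/6 mice labelled as 15 weeks old, were Spl/LN (pooled spleen and lymph nodes) after adjuvant alone (n = 3) or adjuvant/Fat1562 (n = 3), and VAT after adjuvant alone (n = 2) or adjuvant/Fat1562 (n = 3). The donor cells of every group carried the heterozygous vTreg53 TCR transgene and a Foxp3-GFP knock-in allele, and they were transferred intravenously into CD45.1 recipients. Recipients were primed at week 6 after the transfer in complete Freund's adjuvant and boosted at week 7 in incomplete Freund's adjuvant, with 200 µg and then 100 µg of peptide or with none, and cells were sorted at week 8. The labels name PBS and no immunization for the controls where the methods describe adjuvant alone, and the latter name is used here. The cells were of 1 TCR, so the values describe 1 clone specificity and not VAT Treg cells at large.

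T-bet, encoded by Tbx21, is the transcription factor that sets the Th1 program in CD4+ T cells. IL-12 signals through the receptor chains IL-12Rβ1 and IL-12Rβ2 to STAT4, IL-18 signals through its binding chain IL-18Rα (Il18r1) and its accessory chain IL-18Rβ (Il18rap), and both cytokines drive interferon gamma in Th1 cells. Some Treg cells also express T-bet, together with the chemokine receptor CXCR3, in type 1 inflammation.

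Total counts ran from 4490242 to 6570057 per library. Foxp3, the defining transcription factor of Treg cells, was at 7440 ± 193 normalized counts (SD, n = 3) in Spl/LN and 9833 ± 597 (n = 2) in VAT after adjuvant alone, and at 7100 ± 308 (n = 3) and 8818 ± 491 (n = 3) after adjuvant/Fat1562. Cd4 was at 2396 ± 244, 2629 ± 137, 3397 ± 134 and 3118 ± 22.5 in the same order. A normalized count is the count scaled to the mean library size after TMM normalization, and it is used for all levels below unless a level per kilobase is named. In these pools of cells, fewer cells with a transcript and less of it per cell cannot be told apart.

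Of the 8 genes, 6 passed the filter on low counts (a mean above 10 in at least 1 group) and were tested with the other genes, 12932 in all. Il12rb2 and Ifng did not pass. Called genes are those with an adjusted p under 0.05 over all 12932 genes by edgeR's quasi-likelihood test. Between VAT and Spl/LN after adjuvant alone, 3 of the 6 were called higher in VAT and 1 lower, where 16.3% of all genes tested were called (9.09% higher and 7.17% lower). After adjuvant/Fat1562, 2 of the 6 were called higher in VAT and 0 lower, beside 15.0% of all genes (8.26% and 6.73%). Adjuvant/Fat1562 against adjuvant alone gave 2 higher and 1 lower in VAT, beside 8.30% of all genes (4.32% and 3.97%), and 2 higher and 0 lower in Spl/LN, beside 3.98% (2.58% and 1.40%). The interaction, which compares the Fat1562 effect of VAT with that of Spl/LN, was called for 3 of the 6, beside 3.72% of all genes. The adjuvant-alone libraries of a tissue enter both its Fat1562 comparison and the comparison of the tissues, so these results are not independent of each other.

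**Figure D1:**
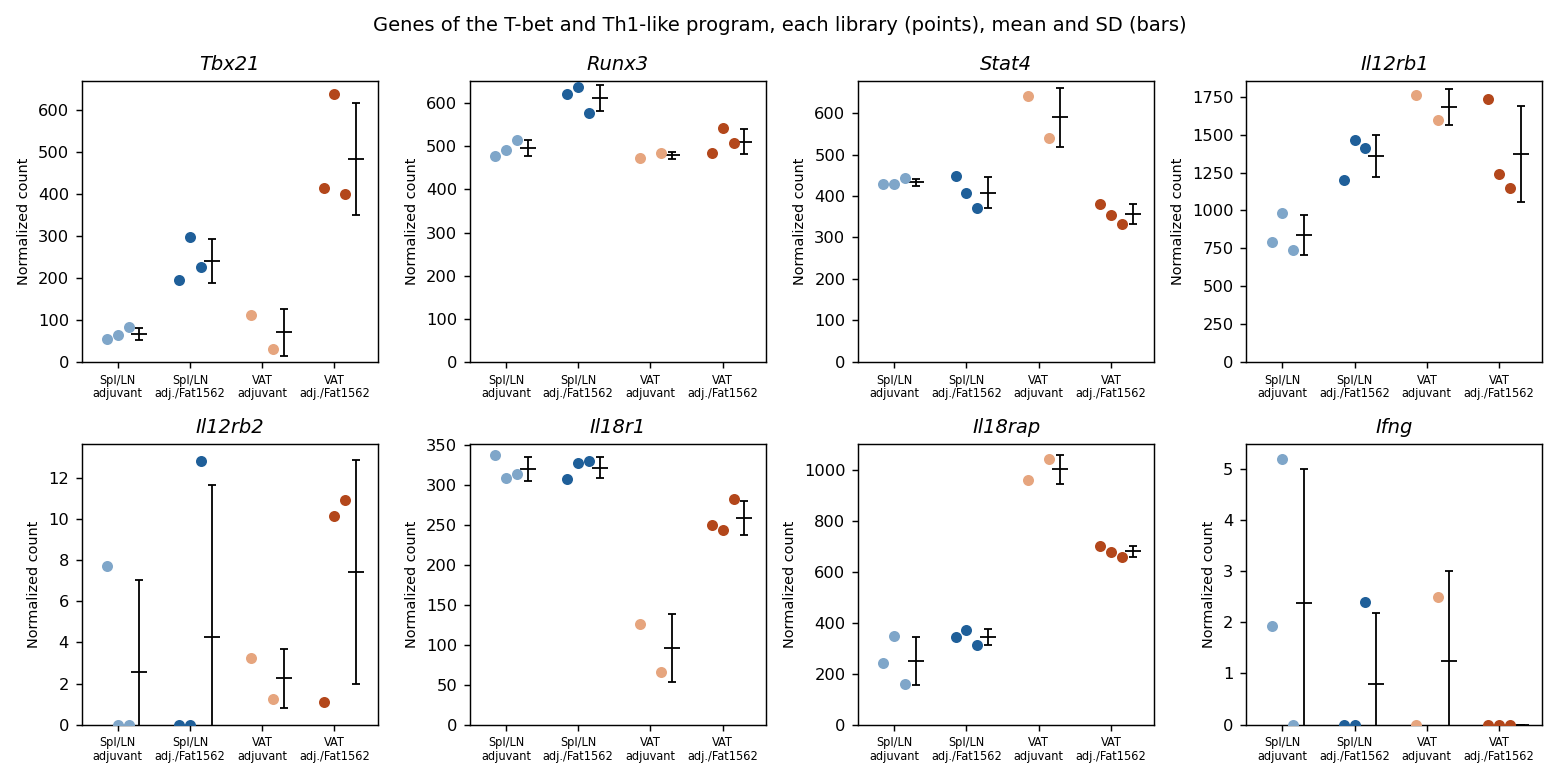
Normalized counts of the 8 genes in each library (points, 2 or 3 per group), with the mean and SD of each group as bars, on linear axes from 0. Tbx21 was above 190 in every adjuvant/Fat1562 library and below 120 in every adjuvant-alone library, while Il12rb2 stayed under 13 and Ifng under 6 in all 11.

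Tbx21 (chr11:97098071-97115331, minus strand, GRCm38) had its lowest levels in the adjuvant-alone groups of both tissues. In Spl/LN after adjuvant alone the 3 libraries held 54.0, 63.5 and 83.1 normalized counts, and in VAT the 2 libraries held 111 and 31.2. After adjuvant/Fat1562 they held 195, 298 and 227 in Spl/LN and 414, 638 and 399 in VAT. The groups therefore ran from VAT adjuvant/Fat1562 (484 ± 134) to Spl/LN adjuvant/Fat1562 (240.1 ± 52.7), VAT adjuvant alone (70.9 ± 56.2) and Spl/LN adjuvant alone (66.9 ± 14.8), and the ranges of the last pair overlapped while the others did not.

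Adjuvant/Fat1562 went with a 6.71-fold higher level of Tbx21 in VAT (log2 fold change 2.75 ± 0.38, SE) and a 3.57-fold higher level in Spl/LN (1.84 ± 0.32), both called by the whole-table fit. The fold in VAT turned on the spread of its 2 control libraries, with a log2 fold change of 2.12 to 3.95 over the alternatives, the highest without VAT adjuvant alone replicate 1. In the same comparison in VAT, 3 genes of the lists of other cell types were called higher as well. Trdc, of the gamma delta and NKT list, was at 496 ± 128 normalized counts after adjuvant alone and 877 ± 154 after adjuvant/Fat1562. Itgam, of the myeloid list, was at 3.12 ± 4.41 and 29.1 ± 26.4. Pecam1, of the list of adipocytes and stroma, was at 264 ± 41.3 and 528 ± 101. No other gene of these lists was called there. The lists had 1 gene tested for gamma delta and NKT cells, 3 for myeloid cells and 2 for adipocytes and stroma. Cd68, also of the myeloid list, was at 15.1 ± 12.5 and 17.3 ± 1.54. Whether the sorted Treg cells or other cells made the Trdc, Itgam and Pecam1 transcripts was not tested. Their levels in Spl/LN are given below with Il18r1. The part of Trdc, Itgam and Pecam1 in the rise of Tbx21 was not tested. VAT and Spl/LN did not differ detectably after adjuvant alone (0.10 ± 0.38). After adjuvant/Fat1562 the level in VAT was 2.02-fold that in Spl/LN (1.01 ± 0.29, called), and this call was lost with quantile normalization and without Spl/LN adjuvant/Fat1562 replicate 1 or 3 or VAT adjuvant/Fat1562 replicate 2, over a range of 0.76 to 1.19. The effect of Fat1562 was not shown to differ between the tissues (interaction 0.91 ± 0.48, not called). Without VAT adjuvant alone replicate 1 the interaction was 2.11 and was called.

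The 250 bases before the annotated start of Tbx21 are printed first of 4 windows (RefSeq, GRCm38.p6), all 5′ to 3′ on the strand of the gene. Tbx21 is shown as the gene of the program with the highest fold after Fat1562, Il18rap as the chain with the highest fold between the tissues, and Il12rb2 and Ifng as the genes that were hardly counted. Capitals mark matches to the STAT letters TTCNNNGAA.
Tbx21 (chr11:97115332-97115581, minus strand): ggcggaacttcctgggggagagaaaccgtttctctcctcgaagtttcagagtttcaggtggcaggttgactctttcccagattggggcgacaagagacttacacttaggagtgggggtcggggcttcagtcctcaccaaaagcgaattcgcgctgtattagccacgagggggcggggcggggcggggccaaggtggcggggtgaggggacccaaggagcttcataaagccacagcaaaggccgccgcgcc
Il18rap (chr1:40515112-40515361, plus strand): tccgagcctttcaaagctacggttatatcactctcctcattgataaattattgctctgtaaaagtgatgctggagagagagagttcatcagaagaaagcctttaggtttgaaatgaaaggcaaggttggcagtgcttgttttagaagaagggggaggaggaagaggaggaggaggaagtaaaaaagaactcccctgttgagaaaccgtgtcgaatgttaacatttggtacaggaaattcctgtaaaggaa
Il12rb2 (chr6:67376189-67376438, minus strand): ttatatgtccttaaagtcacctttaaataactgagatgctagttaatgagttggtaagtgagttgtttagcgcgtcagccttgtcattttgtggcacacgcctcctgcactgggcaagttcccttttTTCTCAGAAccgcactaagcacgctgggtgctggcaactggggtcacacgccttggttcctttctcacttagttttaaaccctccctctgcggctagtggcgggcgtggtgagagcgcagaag
Ifng (chr10:118440796-118441045, plus strand): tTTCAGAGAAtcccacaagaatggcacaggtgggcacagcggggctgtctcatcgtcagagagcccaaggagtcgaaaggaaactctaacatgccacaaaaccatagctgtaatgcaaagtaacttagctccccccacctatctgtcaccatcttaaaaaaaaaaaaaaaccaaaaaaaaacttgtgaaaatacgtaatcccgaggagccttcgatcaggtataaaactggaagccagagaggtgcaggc

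Windows were available for 7 of the 8 genes, 11 in all because some genes have several annotated starts, and Il12rb1 was not matched. Searched on both strands, the STAT letters were in 3 of the 11 windows, beside 7.02% of 32851 windows of all genes. They began 123 bases before the start of Il12rb2 and 249 bases before that of Ifng, and the other window was an alternative start of Il18r1. The T-box letters AGGTGTGA were in 0 of the 11 windows, beside 1.12% of all, and the RUNX letters TGTGGT were in 1, a start of Runx3, beside 14.0%. None of the 3 motifs contains another. A match is only a description of the letters in a window.

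Runx3 encodes a Runt-domain factor that works with T-bet at Th1 genes. Its level (chr4:135120652-135177990, plus strand) was 478, 493 and 515 normalized counts in Spl/LN and 474 and 485 in VAT after adjuvant alone. After adjuvant/Fat1562 it was 622, 637 and 577 in Spl/LN and 484, 542 and 507 in VAT. The Spl/LN adjuvant/Fat1562 libraries lay above all others, and the remaining groups overlapped. Runx3 was called in none of the 4 comparisons, with log2 fold changes from -0.26 ± 0.11 (VAT against Spl/LN after adjuvant/Fat1562) to 0.30 ± 0.11 (Fat1562 in Spl/LN).

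Stat4, the STAT protein that IL-12 activates, was highest in VAT after adjuvant alone. Its libraries (chr1:51987148-52107189, plus strand) held 429, 428 and 443 normalized counts in Spl/LN after adjuvant alone, 447, 407 and 371 in Spl/LN after adjuvant/Fat1562, 640.1 and 540.0 in VAT after adjuvant alone, and 381, 354 and 333 in VAT after adjuvant/Fat1562. The VAT adjuvant-alone libraries were above all others, and among the other 3 groups neighbours in level overlapped. Adjuvant/Fat1562 went with a 1.66-fold lower level in VAT (-0.73 ± 0.14, called), a call that was lost without VAT adjuvant alone replicate 1 (-0.61). In Spl/LN the difference was -0.09 ± 0.12 and was not called. The interaction was -0.64 ± 0.18 and was not called, with the same outcome under 15 of the 18 alternatives, so a difference between the tissues was not shown. After adjuvant alone VAT was 1.36-fold above Spl/LN (0.45 ± 0.13, called), and 7 of the 13 alternatives, which ran from 0.32 to 0.56, lost that call. The gene Gm28177 on the same strand, with 16 counts, shares 1033 exon bases with Stat4. Of the 38-base stretches of Stat4, 22.9% occur in another annotated gene, so part of the count may belong elsewhere or be missing.

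The chains of the IL-12 receptor differed greatly in level. Il12rb1, the chain shared with the IL-23 receptor, was among the more abundant of the 8 genes per kilobase of exon, at 204 ± 31.6 to 409 ± 29.0 normalized counts per kilobase over the group means. Il12rb2, the chain specific to IL-12, was at 0.593 ± 0.374 to 1.95 ± 1.44 on the same scale. Il12rb2 was thus close to undetected in all 4 groups, while the shared chain and Stat4 (91.9 ± 6.24 to 152 ± 18.3 per kilobase) were not.

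Il12rb1 (chr8:70808449-70821424, plus strand) held 792, 985 and 739 normalized counts in Spl/LN and 1765 and 1596 in VAT after adjuvant alone. After adjuvant/Fat1562 it held 1203, 1464 and 1415 in Spl/LN and 1735, 1238 and 1146 in VAT. Spl/LN after adjuvant alone lay below every other library, and among the other 3 groups neighbours in level overlapped. VAT was 2.01-fold above Spl/LN after adjuvant alone (1.00 ± 0.16, called), whereas the tissues were not distinguishable after adjuvant/Fat1562 (0.01 ± 0.14, not called). Fat1562 went with a 1.62-fold higher level in Spl/LN (0.70 ± 0.14, called, but not without Spl/LN adjuvant/Fat1562 replicate 2), and with -0.29 ± 0.16 in VAT (not called). The interaction was -0.99 ± 0.21 and was called, but not without VAT adjuvant alone replicate 1 (-0.92).

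Il12rb2 (chr6:67291318-67376188, minus strand) had raw counts of 8, 0 and 0 in Spl/LN after adjuvant alone, 0, 0 and 16 in Spl/LN after adjuvant/Fat1562, 3 and 1 in VAT after adjuvant alone, and 1, 10 and 12 in VAT after adjuvant/Fat1562. Summed over a group these were 0.507, 0.941, 0.409 and 1.40 CPM. Every pair of groups overlapped, and no fold is given. On the opposite strand Serbp1, with 21498 counts, shares 1519 of the 3794 exon bases of Il12rb2. Without a stated strand setting, reads of Serbp1 and Il12rb2 within the shared bases cannot be told apart.

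The chains of the IL-18 receptor lie 14507 bases apart on the plus strand of chromosome 1, and their levels ran in opposite directions between the tissues. Il18r1 (chr1:40465552-40500854) held 338, 309 and 314 normalized counts in Spl/LN after adjuvant alone and 307, 328 and 331 after adjuvant/Fat1562. In VAT it held 126 and 66.1 after adjuvant alone and 249, 243 and 283 after adjuvant/Fat1562. The 2 VAT adjuvant-alone libraries were the lowest, the other VAT libraries came next, and the Spl/LN groups overlapped above them.

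Il18r1 was 3.31-fold lower in VAT than in Spl/LN after adjuvant alone (-1.73 ± 0.22, called) and -0.32 ± 0.18 on the log2 scale after adjuvant/Fat1562 (not called). Fat1562 went with a 2.67-fold higher level in VAT (1.42 ± 0.22, called) and with no detectable difference in Spl/LN (0.01 ± 0.17). The interaction of 1.41 ± 0.28 was called, and it was also called under all 18 alternatives (1.03 to 1.96). Of the genes of the lists of other cells, Pecam1 alone was also called in the interaction. Pecam1 was at 491 ± 25.8 normalized counts in Spl/LN and 264 ± 41.3 in VAT after adjuvant alone, and at 528 ± 101 in VAT after adjuvant/Fat1562. Itgam followed the same order at 26.8 ± 14.8, 3.12 ± 4.41 and 29.1 ± 26.4, and so did Trdc at 764 ± 97.2, 496 ± 128 and 877 ± 154. Cd68, of the myeloid list with Itgam, did not, at 11.4 ± 8.73, 15.1 ± 12.5 and 17.3 ± 1.54. In Spl/LN after adjuvant/Fat1562 Itgam was at 59.0 ± 15.3, above its level after adjuvant alone, and Il18r1 showed no such rise there. The part of Pecam1, Itgam and Trdc in the result was not tested.

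Il18rap (chr1:40515362-40551705) held 243, 347 and 158 normalized counts in Spl/LN after adjuvant alone and 345, 373 and 312 after adjuvant/Fat1562. In VAT it held 961 and 1040.2 after adjuvant alone and 702, 676 and 659 after adjuvant/Fat1562. All VAT libraries were above all Spl/LN libraries, and the 2 VAT groups did not overlap. VAT was 4.03-fold above Spl/LN after adjuvant alone (2.01 ± 0.21) and 1.98-fold above it after adjuvant/Fat1562 (0.98 ± 0.19), both called under every alternative run. Fat1562 went with -0.56 ± 0.20 in VAT and 0.47 ± 0.19 in Spl/LN, neither called. The interaction of -1.02 ± 0.28 was called, but 9 of the 18 alternatives lost the call (-1.34 to -0.78).

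Per kilobase of exon, the accessory chain was below the binding chain in Spl/LN and above it in VAT. The ratio of Il18rap to Il18r1 was 0.514, 0.800 and 0.359 in Spl/LN after adjuvant alone, and it was 0.762 ± 0.0768 (SD, n = 3) after adjuvant/Fat1562. In VAT it was 5.45 and 11.2 after adjuvant alone and 2.01, 1.98 and 1.66 after adjuvant/Fat1562. The VAT libraries lay above 1 and the Spl/LN libraries below it, and within VAT the ranges of the 2 groups did not overlap. The side of 1 in Spl/LN depends on the lengths used, 6752 bases for Il18rap and 4817 for Il18r1 over all annotated exons. Before this scaling Il18rap and Il18r1 were at 343 ± 30.4 and 322 ± 13.0 in Spl/LN after adjuvant/Fat1562. After adjuvant alone they were at 249 ± 94.6 and 320 ± 15.1.

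**Figure D2:**
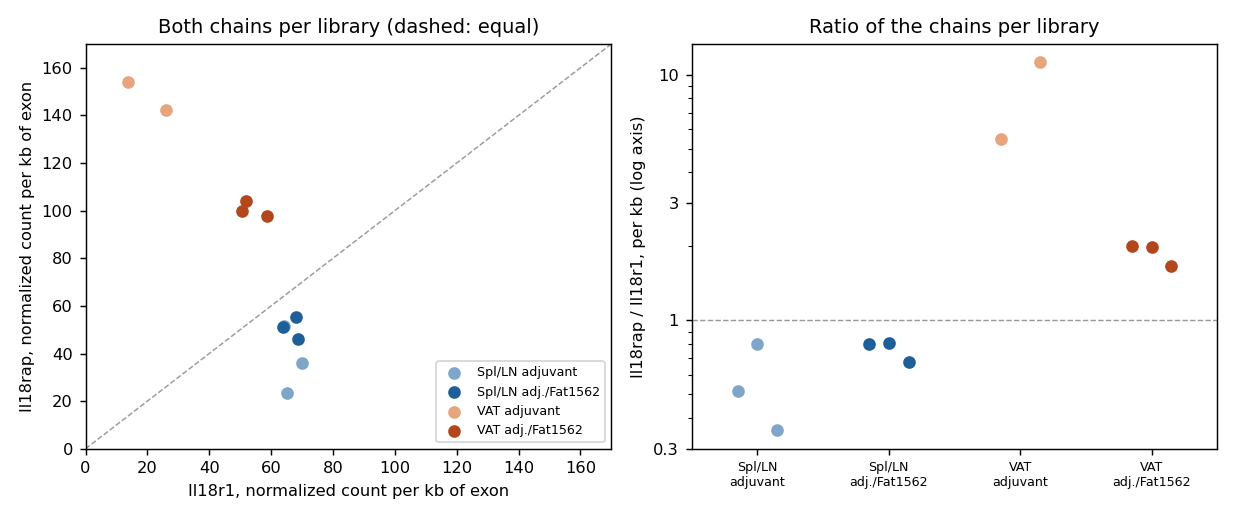
Left, normalized counts per kilobase of exon of Il18r1 (horizontal) and Il18rap (vertical) in each of the 11 libraries, with the dashed line at equal levels. Right, the ratio of Il18rap to Il18r1 per kilobase in each library on a log axis, with the dashed line at 1, from 0.359 in a Spl/LN adjuvant-alone library to 11.2 in a VAT adjuvant-alone library.

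Ifng (chr10:118441046-118445892, plus strand), the cytokine at the end of the pathway, was close to undetected in all groups. Its raw counts were 2, 5 and 0 in Spl/LN after adjuvant alone, 0, 0 and 3 in Spl/LN after adjuvant/Fat1562, 0 and 2 in VAT after adjuvant alone, and 0, 0 and 0 in VAT after adjuvant/Fat1562. The 12 counts over all 11 libraries allow no fold. In VAT after adjuvant/Fat1562, where Tbx21 was highest, 0 of 16380685 counts allows a level of up to 0.183 CPM, counting error only. Gm49751 on the same strand shares 336 exon bases with Ifng.

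**Figure D3:**
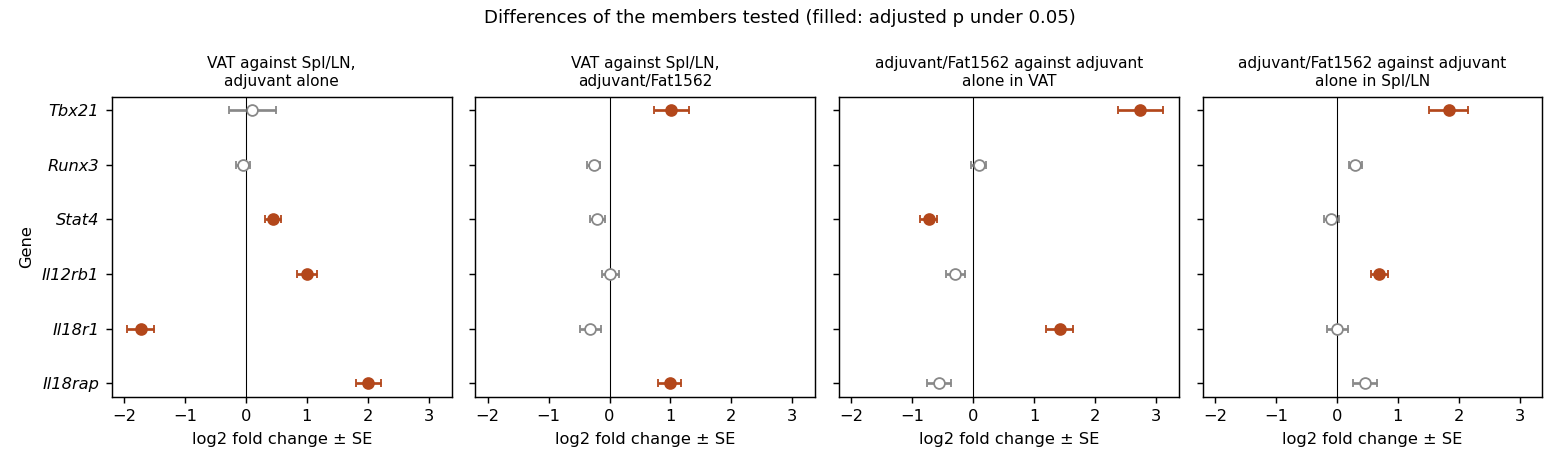
Log2 fold changes with their standard errors (bars) for the 6 genes tested, 1 panel per comparison, with filled points for genes called at an adjusted p under 0.05. Tbx21 was called higher after Fat1562 in both tissues (2.75 in VAT and 1.84 in Spl/LN), while Il18r1 and Il18rap lay on opposite sides of 0 in VAT against Spl/LN after adjuvant alone (-1.73 and 2.01).

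The other genes of the pathway were taken from 5 lists of 60 genes, of which 51 were tested. Like the members, the lists were chosen with earlier results of these data known. Their counts and p-values are therefore a description and are not read as support. After Fat1562, 17 of the 51 were called in VAT, 10 of them higher, beside 8.30% of all genes tested, and 9 in Spl/LN, 6 of them higher, beside 3.98%. Between VAT and Spl/LN 16 were called higher and 3 lower after adjuvant alone, beside 9.09% and 7.17% of all genes, and 18 and 4 after adjuvant/Fat1562, beside 8.26% and 6.73%. The p-values below are adjusted over all 12932 genes in edgeR's quasi-likelihood test.

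Th1 effector products and receptors held 8 of the 10 listed genes that rose after Fat1562 in VAT and 3 of the 6 that rose in Spl/LN. Of the 14 tested, 8 rose and 2 fell in VAT (beside 4.32% and 3.97% of all genes tested, median log2 fold change 1.03, beside 0.01 for all genes tested), and 3 rose and 2 fell in Spl/LN (beside 2.58% and 1.40%, median 0.01, beside 0.00). The 8 in VAT include Ccl3, which passed the filter on low counts only through VAT after adjuvant/Fat1562. Cxcr3, Nkg7 and Ccl5 rose in both tissues, and Tnf fell in both. The share of all genes tested that were called in both tissues was not computed, so this overlap is only a description. No library is shared by these 2 comparisons, but they come from 1 fit. Whether the tissues came from the same recipients is not stated.

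Cxcr3, the receptor for interferon-induced chemokines and a known T-bet target, held 243, 303 and 196 normalized counts in Spl/LN and 289 and 234 in VAT after adjuvant alone. After adjuvant/Fat1562 it held 737, 1277 and 1214 in Spl/LN and 579.9, 906 and 1098 in VAT. Every adjuvant/Fat1562 library was above every control library, by 4.36-fold in Spl/LN (2.12 ± 0.23, adjusted p = 4.69e-05 in edgeR) and 3.29-fold in VAT (1.72 ± 0.27, adjusted p = 0.000531).

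Nkg7, a granule protein of cytotoxic lymphocytes, held 118, 64.6 and 43.8 normalized counts in Spl/LN and 178 and 66.1 in VAT after adjuvant alone. After adjuvant/Fat1562 it held 252, 410.4 and 315 in Spl/LN and 759.7, 898 and 961 in VAT. It rose 4.31-fold in Spl/LN (2.11 ± 0.32, adjusted p = 0.000819 in edgeR) and 7.07-fold in VAT (2.82 ± 0.36, adjusted p = 7.94e-05), and in VAT its log2 fold change was 3.72 without VAT adjuvant alone replicate 1 and 2.29 without replicate 2. The markers Trdc, Itgam and Pecam1 also moved in VAT, as given beside Tbx21, and their part in the rise of the effector genes was not tested. Ccl5, a chemokine of T cells and NK cells, went from 226 ± 22.4 to 696 ± 313 in Spl/LN (1.62 ± 0.25, adjusted p = 0.000921 in edgeR) and from 279 ± 31.6 to 1037 ± 136 in VAT (1.89 ± 0.29, adjusted p = 0.000398). Neither gene overlapped between control and Fat1562 libraries of a tissue.

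Ccl3, Prf1 and Havcr2 were called after Fat1562 in VAT and not in Spl/LN. Ccl3, another chemokine, held 13.0 and 2.49 normalized counts in VAT after adjuvant alone and 191, 135 and 175 after adjuvant/Fat1562 (4.37 ± 0.56, 3.67 to 5.99 over the alternatives). It stayed at or below 2.86 in every Spl/LN library. Ccl3 passed the filter on low counts only through VAT after adjuvant/Fat1562, so its call is not read as support. Its interaction was not called. Prf1, the pore-forming protein of cytotoxic granules, held 77.0 and 86.1 in VAT after adjuvant alone and 423, 331 and 244 after adjuvant/Fat1562. In Spl/LN it was at 180.2 ± 70.5 and 171 ± 19.2, and the interaction was 2.10 ± 0.41 (adjusted p = 0.00703 in edgeR). The granzyme genes tested, Gzmb and Gzma, were called after Fat1562 in neither tissue. Gzmb went from 5315 ± 1320 to 4464 ± 2764 in VAT and from 2334 ± 205 to 3180 ± 589 in Spl/LN. Gzma went from 92.8 ± 107 to 24.4 ± 21.7 in VAT and from 26.8 ± 42.0 to 21.7 ± 9.77 in Spl/LN. Havcr2, which encodes the checkpoint receptor TIM-3, held 312 and 338 and then 1409, 978 and 1015 in VAT, against 370.1 ± 12.9 and 353 ± 31.5 in Spl/LN, with an interaction of 1.87 ± 0.21 (adjusted p = 9.22e-05 in edgeR).

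**Figure D4:**
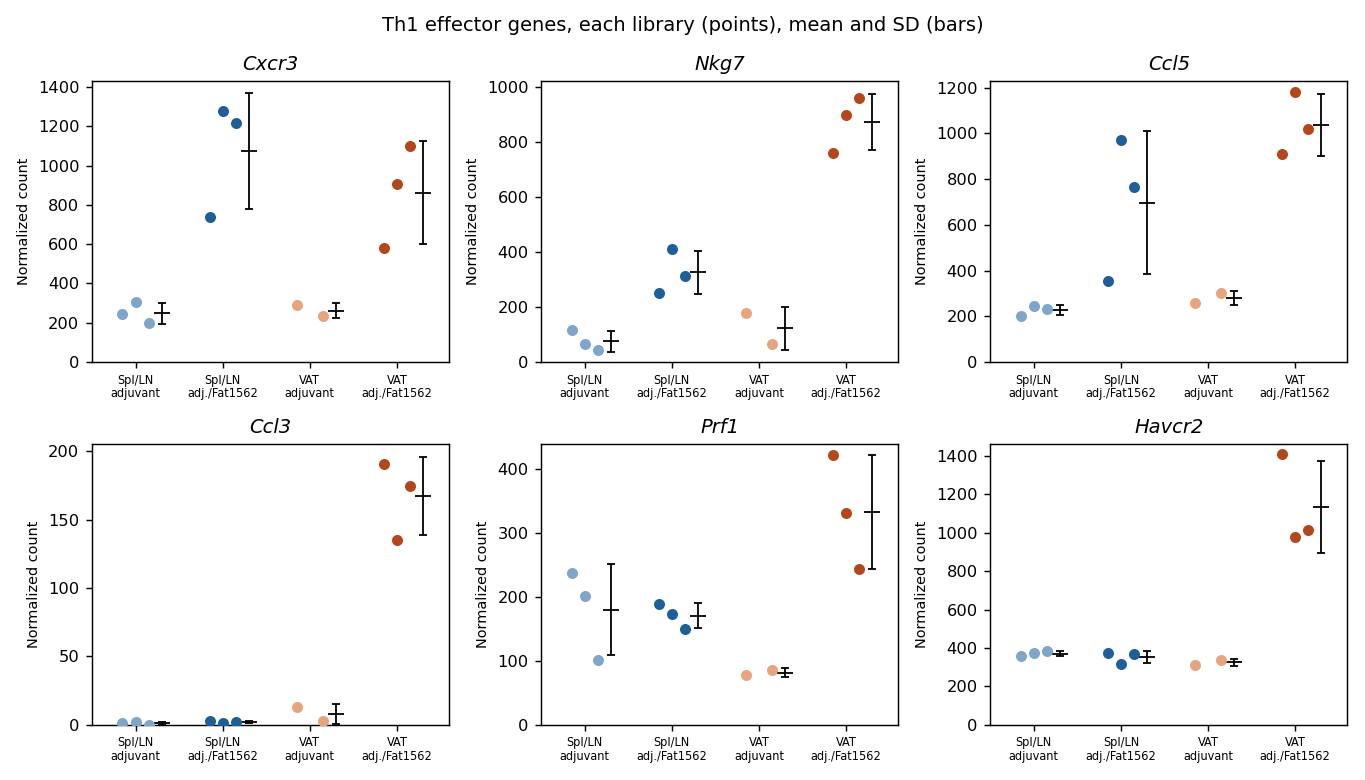
Normalized counts of 6 Th1 effector genes in each library (points), with the mean and SD of each group as bars, on linear axes from 0. Cxcr3, Nkg7 and Ccl5 were higher after adjuvant/Fat1562 in both tissues, and Ccl3, Prf1 and Havcr2 reached 167, 333 and 1134 on average in VAT after adjuvant/Fat1562.

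Tnf and Lta, genes of the TNF family that Th1 cells also express, were called in the other direction. Tnf fell from 343 ± 53.3 to 181 ± 52.2 normalized counts in Spl/LN (-0.93 ± 0.21, adjusted p = 0.0206 in edgeR, lost without Spl/LN adjuvant alone replicate 2 or Spl/LN adjuvant/Fat1562 replicate 2 or 3, and at -0.81, -0.94 and -0.72 then), and from 751 ± 279 to 275 ± 12.1 in VAT (-1.45 ± 0.23, adjusted p = 0.000512). Lta fell from 163 ± 13.3 to 44.7 ± 15.8 in Spl/LN (-1.85 ± 0.41, adjusted p = 0.0157 in edgeR), a call lost with quantile normalization and without Spl/LN adjuvant/Fat1562 replicate 2 (-1.59). Ly6c2 was called lower in VAT, but 1 control library held 251 of its counts and the other 3.25, and without VAT adjuvant alone replicate 2 its log2 fold change was 1.12 in place of -4.11. Xcl1, Gzmk, Il2 and Csf2 did not pass the filter.

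Among the 10 genes of the interferon gamma receptor and its signaling, 1 rose and 2 fell after Fat1562 in VAT, and 1 rose and 1 fell in Spl/LN, beside the shares of all genes given above. Ifngr1, the ligand-binding receptor chain, was at 3105 ± 294 normalized counts in Spl/LN and 14425 ± 309 in VAT after adjuvant alone, a log2 difference of 2.22 (adjusted p = 1.4e-11 in edgeR). After adjuvant/Fat1562 it was at 4713 ± 399.9 and 11422 ± 553. It rose in Spl/LN (0.60 ± 0.08, adjusted p = 0.000329) and fell in VAT (-0.34 ± 0.09, adjusted p = 0.0269 in edgeR, lost without any 1 of 4 of the 5 VAT libraries at -0.36 to -0.30), and the interaction was -0.94 ± 0.12. Nlrc5, a transactivator of MHC class I genes, fell 2.18-fold in VAT (-1.12 ± 0.09, adjusted p = 9.03e-07 in edgeR). Irf8 was the gene that rose in VAT, from 476 ± 131 to 852 ± 222, with a log2 fold change of 0.58 to 1.15 over the alternatives. Its call was kept under 10 of the 13 alternatives. Socs3 was the gene that fell in Spl/LN, by -1.03 to -0.85 over the alternatives. Irf1, a transcription factor downstream of the receptor, was called in neither Fat1562 comparison.

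Among the 14 genes tested of IL-12 and IL-18 ligands and signaling, 0 rose after Fat1562 in either tissue. Of all genes tested, 4.32% rose in VAT and 2.58% in Spl/LN. Irak3 alone fell, in VAT (-1.35 ± 0.29, adjusted p = 0.00718 in edgeR, lost without VAT adjuvant alone replicate 1 at -1.27), beside 3.97% of all genes. Irak2, Irak3 and Jak2 were higher in VAT than in Spl/LN after adjuvant alone, by 1.39, 1.42 and 1.18 on the log2 scale, beside 9.09% of all genes. The adaptor Myd88 and the kinase Tyk2 were called in no comparison of the 4. Il12a and Il12b, the subunits of IL-12, did not pass the filter.

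Of 6 T-bet partners and Th1 regulators tested, 4 were higher in VAT than in Spl/LN after adjuvant alone, beside 9.09% of all genes. They were Id2 (2.73), Bhlhe40 (2.66), Runx2 (1.69 on the log2 scale) and Zeb2. Zeb2 had raw counts of 1, 19 and 0 in Spl/LN and 295 and 242 in VAT, and its log2 fold change ran from 4.93 to 9.03 over the alternatives, the highest without Spl/LN adjuvant alone replicate 2. All of them were also called higher after adjuvant/Fat1562, beside 8.26% of all genes. Their log2 fold changes were 2.63 for Zeb2, 2.202 for Id2, 3.31 for Bhlhe40 and 1.13 for Runx2. Runx2, a relative of Runx3, also rose after Fat1562 in Spl/LN (1.10 ± 0.15, adjusted p = 0.000343 in edgeR) and in VAT (0.54 ± 0.16, adjusted p = 0.0450, lost under 8 alternatives). Eomes, the T-box factor closest to T-bet, did not pass the filter.

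Of 7 factors of other helper lineages, 4 were called higher in VAT than in Spl/LN after adjuvant alone, beside 9.09% of all genes. After Fat1562, 0 rose and 2 fell in VAT, beside 4.32% and 3.97%. In Spl/LN 1, Maf, was called higher (0.36 ± 0.10, adjusted p = 0.0447 in edgeR, lost under 7 alternatives), beside 2.58%. Gata3 of the Th2 lineage fell in VAT from 6591 ± 406 to 3740.0 ± 830.0 (-0.82 ± 0.13, adjusted p = 0.000586 in edgeR), and Rora fell from 4271 ± 265 to 2329.8 ± 325 (-0.87 ± 0.12, adjusted p = 0.000104). In Spl/LN neither was called.

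**Figure D5:**
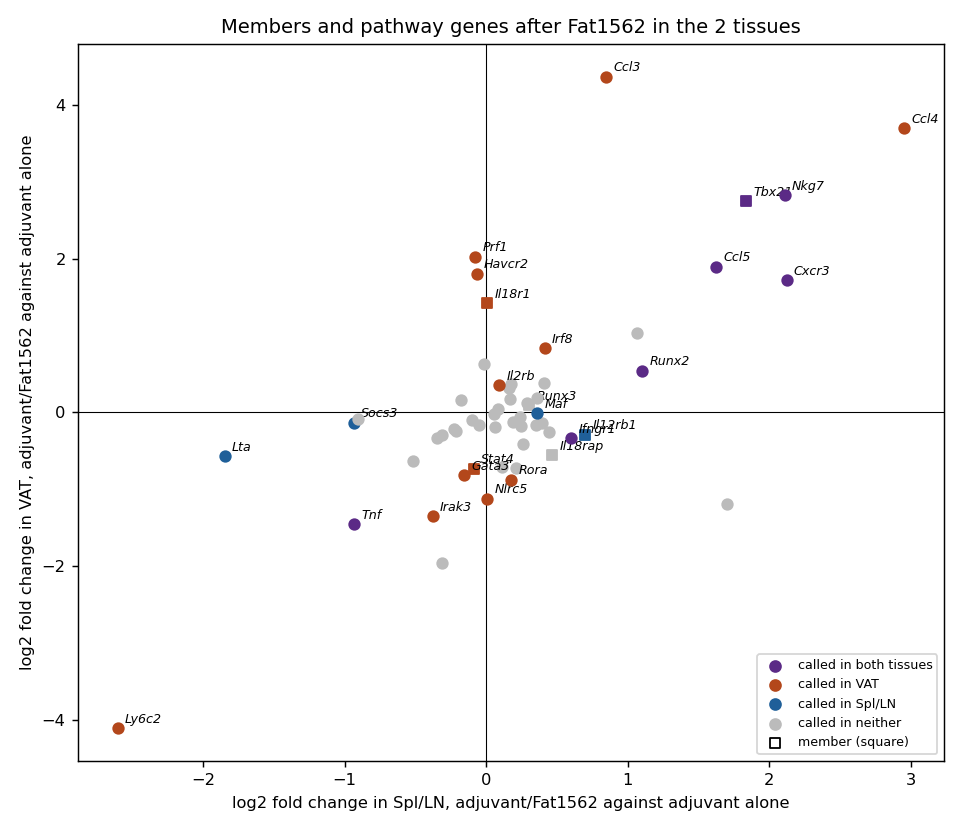
Log2 fold change after adjuvant/Fat1562 in Spl/LN (horizontal) and in VAT (vertical) of the 6 members tested (squares) and the 51 pathway genes tested (circles), colored by the tissue in which the gene was called. Tbx21, Nkg7, Cxcr3, Ccl5 and Runx2 were called higher in both tissues, Tnf lower in both, and Ifngr1 higher in Spl/LN (0.60) and lower in VAT (-0.34).

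The 5 genes most like Tbx21 by Pearson's r of log2(normalized count + 1) over the 11 libraries were Arl6ip1 (0.963), Lims1 (0.958), Rilpl2 (0.956), Pglyrp1 (0.942) and Larp4b (0.941). The libraries share their groups, so these values describe the pattern over the 4 groups and carry no p. Pearson's r does not reflect the size of a change. After Fat1562 the folds of the 5 ran from 1.37 (Arl6ip1) to 2.08 (Pglyrp1) in VAT, beside 6.71 for Tbx21. In Spl/LN they ran from 1.12 (Arl6ip1) to 1.60 (Pglyrp1), beside 3.57 for Tbx21. Among the members r was 0.446 for Runx3, 0.424 for Il18r1, 0.307 for Il12rb1, 0.171 for Il18rap and -0.67 for Stat4.

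Other lymphocytes that express T-bet, Nkg7 or Prf1 were looked for by their markers. The summed level of 3 gamma delta and NKT cell markers was 703 to 877 normalized counts in Spl/LN after adjuvant alone, 709 to 1072 after adjuvant/Fat1562, 405 to 589 in VAT after adjuvant alone and 714 to 1017 after adjuvant/Fat1562. Trdc made up nearly all of it, and the group means of Sox13 and Zbtb16 were at most 1.29. The summed level of 6 NK cell markers was 14.6 to 57.9 normalized counts in Spl/LN after adjuvant alone, 20.02 to 56.8 after adjuvant/Fat1562, 5.42 to 11.2 in VAT after adjuvant alone and 7.29 to 12.2 after adjuvant/Fat1562, and Ncr1 was at 0 in every adjuvant/Fat1562 library. Klrb1c, 1 of the 6, was called higher after Fat1562 in Spl/LN, at 25.5 ± 8.07 against 2.23 ± 1.35. It passed the filter only through that group, so its call is not read as support. Fcer1g (5.35 ± 5.77 against 16.5 ± 15.9) and Klre1 (0.801 ± 1.39 against 3.86 ± 6.68) went the other way, neither of them called. The part of Klrb1c in the higher Tbx21 of Spl/LN was not tested. Of the 2 CD8 T cell markers, Cd8a was at 0 in all VAT libraries and Cd8b1 was at 106 ± 10.3, 90.0 ± 28.6, 182 ± 15.5 and 115 ± 22.6 in Spl/LN adjuvant alone, Spl/LN adjuvant/Fat1562, VAT adjuvant alone and VAT adjuvant/Fat1562. Over the 11 libraries the summed level ran from 69.7 to 226 for 5 B cell markers, led by Cd79b, and from 26.2 to 129 for 6 myeloid markers.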

How the data were processed

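Smart-seq2 libraries were grouped by tissue and immunization from the sample labels. The authors deposited 1 table of raw counts per gene, whole numbers without normalization, for 11 libraries. Submitters' processing notes name STAR 2.5.4, featureCounts and mm10, and the methods name Cuffquant with filters above 10 and a coefficient of variation under 0.7. Annotation and strand setting are not given in the sources used here. Nothing says that same-numbered libraries share a mouse, so p-values measure the spread between these libraries. No molecular identifiers are named, so floors cover counting error only.

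The 12932 genes whose mean exceeded 10 in 1 or more groups were fitted with edgeR 4.0.16 in R 4.3.3 (TMM, quasi-likelihood, 4 groups in 1 fit, prior count 0.125), with Benjamini-Hochberg adjustment over all tested genes and calls at 0.05. The SE is the absolute log2 fold change divided by the square root of F. The common biological coefficient of variation was 19.06%. The interaction is the Fat1562 effect in VAT minus that in Spl/LN. A count of 0 was given the upper limit of 3 counts in the summed total. Positions and exon lengths came from GENCODE vM21 (GRCm38). The steps were tested on simulated data.

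The members and lists were chosen with earlier results of these data known. Named genes were the 8 members, genes of the lists that were called or define the list, the 5 genes with the highest r with Tbx21, and Foxp3 and Cd4. Some genes of the lists are not reported here. Genes of other-cell marker lists were named after their values were seen. Settings varied were the filter (none, or a mean above 50), the coefficient of variation filter, median-of-ratios factors, quantile normalization with limma 3.58.1, DESeq2 1.42.0, only the groups compared, the replicate block and each library left out.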

Additional observations from a re-analysis of the deposited data

Results flagged for a closer look

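The interaction term of edgeR's fit, the effect of adjuvant/Fat1562 in VAT minus that in Spl/LN, was called for 3 members: Il12rb1 (-0.99), Il18r1 (1.41) and Il18rap (-1.02 on the log2 scale). Il18r1 kept the call under all 18 alternatives, Il12rb1 lost it without VAT adjuvant alone replicate 1, and Il18rap lost it under 9 of the 18. The same term was called for 7 genes of the pathway lists. It was positive for Prf1 (2.10), Havcr2 (1.87) and Socs3 (0.80), and negative for Nlrc5 (-1.13), Rora (-1.05), Ifngr1 (-0.94) and Gata3 (-0.66). Gata3 kept the call under 8 of the 18 alternatives and Socs3 under 12, and the other 5 under all 18. With 2 or 3 libraries a group, single libraries were not tested as outliers.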

How the results depend on the processing

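Of 429 fold changes of the members under alternatives, 384 kept their direction and side of the threshold, 23 lost a call, 8 gained one and 14 changed sign, all of the last from values not called. Of 1022 of the called pathway genes, an alternative set chosen after seeing the data, 921 kept both, 100 lost the call and 1 changed sign. The changes of sign were Tbx21 in VAT against Spl/LN after adjuvant alone (-0.14 with quantile normalization, -1.10 to 0.72 with 1 library left out, below 0 at -1.10 and -0.03), Il12rb1 in VAT against Spl/LN after adjuvant/Fat1562 (-0.0791 with quantile normalization, -0.00166 with the replicate block, -0.19 to 0.13 with a library left out, below 0 at -0.19 and -0.0691), Il18r1 after Fat1562 in Spl/LN (-0.00799 with a mean above 50, -0.00218 with the coefficient of variation filter, -0.00681 with quantile normalization, -0.0172 to 0.0465 with a library left out, below 0 at -0.0172, -0.0130, -0.00713 and -0.00646), and Ly6c2 after Fat1562 in VAT (-5.10 to 1.12 with a library left out, above 0 at 1.12). The cause was not tested. The coefficient of variation filter removed Tbx21 from comparisons with VAT after adjuvant alone, where its 2 libraries had a coefficient of 79.2%.

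Genes called after Fat1562 in Spl/LN numbered 515, and 793 without a filter and 793 with DESeq2. The interaction gave 481, and 789 with DESeq2. With quantile normalization, 1 member was called in VAT against Spl/LN after adjuvant/Fat1562, and without a filter 15 pathway genes after Fat1562 in Spl/LN. With each library left out, genes called ran from 1250 to 2106 and from 1287 to 1710 between the tissues (adjuvant alone, then adjuvant/Fat1562), from 509 to 823 after Fat1562 in VAT, from 190 to 483 in Spl/LN and from 236 to 580 in the interaction. Members called ran from 3 to 4, 1 to 2, 2 to 4, 1 to 3 and 2 to 3 in that order, and pathway genes from 13 to 19, 18 to 23, 12 to 16, 6 to 10 and 5 to 9. A lone VAT control library was assumed to vary like the other groups.

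The replicate block gave 1804, 1861, 990, 515 and 435 genes called in that order. Deviations of same-numbered libraries correlated at -0.04 to 0.06, so the numbers were not taken to pair the samples.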
